A study of Mus musculus with 4 samples.

Results

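The genes of glycolysis and of the transcriptional response to low oxygen were followed across 4 dishes of cultured mouse cells. The labels call them synovial fibroblasts, the connective tissue cells that line joints. RNA of macrophage marker genes was also found in the dishes, with values given below. The gene set was chosen by name, with earlier results of these data known, and holds 35 genes. Its shares beside those of all genes are therefore a description and not a test. In all, 12393 genes have a probe set of their own on the array. A gene was used where a probe set names it alone, and of several such probe sets the one brightest on average (mean log2 signal) stood for it. By this rule 31 of the 35 genes were found, on 65 probe sets. Bnip3l, Gpi1, Eno1 and Ankrd37 had no such probe set and are not analysed here. Slc2a3, a glucose transporter, stayed under the detection floor on every array, and the other 30 genes were above it on all 4.

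Male DBA/1J mice aged 8 to 12 weeks, without arthritis, gave the cells, which were taken from the knee and passaged 3 to 4 times. All dishes were held in medium with 1% serum. For 6 h a dish received vehicle or IL-1β, a cytokine of joint inflammation, at 5 ng/ml. The third dish had 1 µM indomethacin beside IL-1β, and the fourth had both and 1 µM iloprost as well. Indomethacin inhibits the cyclooxygenases, which make the precursor of all prostaglandins and prostacyclin, and iloprost is a stable prostacyclin analogue that raises cyclic AMP through the prostacyclin receptor. The dishes are called here the vehicle, IL-1β, indomethacin and iloprost dishes, and the last holds all 3 agents. Each treatment has 1 array, so no value has an error between dishes, no test between treatments was possible, and every difference describes these 4 dishes.

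Glycolysis splits glucose into pyruvate in the cytosol and yields ATP without oxygen, and cells that depend on it take up glucose and export lactate. Under low oxygen the transcription factor HIF-1 accumulates, because the prolyl hydroxylases that mark its α subunit for destruction need oxygen, and it switches on glucose transporters, glycolytic enzymes and genes that limit mitochondrial respiration. Inflamed joint lining is known to be poor in oxygen and rich in lactate, and cytokines can also switch on HIF-1 targets in normal oxygen.

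A signal is the deposited linear intensity of a probe set. Signals under 37.6, the 50th percentile of all values, were set to that floor. Ratios are differences of log2 signals between a pair of arrays, relative to the median gene, which is the median over the 6222 genes that exceeded the floor on each of the arrays. The median gene was brighter with IL-1β than with vehicle by 0.23, dimmer with indomethacin than with IL-1β alone by a log2 of -0.15, nearly level between the iloprost and indomethacin dishes (0.01), and at -0.14 with iloprost against IL-1β. Counts use a threshold of 2-fold in either direction, and where stated 1.5-fold. The noise of a ratio on an array was read from probe sets of the same gene. Its SD was between 0.17 and 0.19 on the log2 scale for probe sets at or above a signal of 113.2 on the brighter array, and between 0.25 and 0.26 below it. This noise leaves out any difference between dishes.

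The promoter sequences shown first are those of the 5 members with an entry in the RefSeq table that passed 2-fold with IL-1β, on adding a drug, or with iloprost against IL-1β alone, since HIF-1 binds the core letters ACGTG or GCGTG. Each sequence is the 250 bases before a RefSeq transcription start, in build GRCm38.p6, read on the strand of the gene. Capitals mark ACGTG and GCGTG on either strand, so that the minus strand appears as CACGT and CACGC. Mxi1 has 3 such windows, and the middle one is shown. The middle and the last hold 1 match each, and the first holds 0. Egln3 also has an entry but passed 2-fold only for iloprost against vehicle, and is not shown.
Mxi1, a repressor that opposes Myc, chr19:53329163-53329412, plus strand: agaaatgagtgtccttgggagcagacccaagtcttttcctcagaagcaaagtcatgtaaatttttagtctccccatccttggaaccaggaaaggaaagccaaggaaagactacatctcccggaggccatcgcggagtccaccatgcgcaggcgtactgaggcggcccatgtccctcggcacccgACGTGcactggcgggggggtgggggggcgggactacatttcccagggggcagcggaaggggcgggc
Slc16a3, the lactate exporter MCT4, chr11:120948817-120949066, plus strand: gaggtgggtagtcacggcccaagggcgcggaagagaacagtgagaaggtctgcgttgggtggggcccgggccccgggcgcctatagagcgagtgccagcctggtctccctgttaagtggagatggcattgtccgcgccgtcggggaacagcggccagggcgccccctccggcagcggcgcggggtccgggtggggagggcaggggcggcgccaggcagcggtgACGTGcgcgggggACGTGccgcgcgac
Ddit4, the mTORC1 inhibitor REDD1, chr10:59951771-59952020, minus strand: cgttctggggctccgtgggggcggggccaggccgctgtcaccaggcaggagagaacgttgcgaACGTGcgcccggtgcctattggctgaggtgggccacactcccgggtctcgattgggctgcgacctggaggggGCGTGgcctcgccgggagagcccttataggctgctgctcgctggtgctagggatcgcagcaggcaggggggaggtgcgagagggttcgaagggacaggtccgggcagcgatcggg
Bnip3, a mitochondrial protein that promotes mitophagy, chr7:138909507-138909756, minus strand: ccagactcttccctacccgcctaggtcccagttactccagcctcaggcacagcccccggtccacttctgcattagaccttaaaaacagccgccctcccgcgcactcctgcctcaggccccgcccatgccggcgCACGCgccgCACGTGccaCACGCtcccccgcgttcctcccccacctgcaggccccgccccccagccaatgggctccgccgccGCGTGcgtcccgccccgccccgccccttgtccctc
Slc2a1, the glucose transporter GLUT1, chr4:119108495-119108744, plus strand: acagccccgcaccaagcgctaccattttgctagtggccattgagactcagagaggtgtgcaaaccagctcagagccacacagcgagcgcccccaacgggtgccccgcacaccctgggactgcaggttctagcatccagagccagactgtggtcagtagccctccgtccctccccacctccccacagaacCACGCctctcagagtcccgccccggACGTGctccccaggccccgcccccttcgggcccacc

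Both strands of all windows were searched. The table has an entry for 31 of the 35 genes, 28 of them among those found on the array. Of these 31 genes, 27 held ACGTG or GCGTG in at least 1 window, against 41.5% of the 27025 genes in the table. By window, 36 of 49 member windows held it, or 73.5%, against 38.6% of all 32851 windows. The member windows had a median GC content of 62.8% and all windows 52.4%, and both motifs hold a CG pair, so the shares are a description that base composition enters. Members also had more windows per gene than all genes, which can raise the share by gene, and windows of 1 gene can overlap. The set was named for the response to low oxygen, so the choice of genes enters the shares too. Bnip3 had 5 matches over both strands, including the palindromic E-box CACGTG at 108 bases before the start, which reads ACGTG on each strand. In Slc16a3 both ACGTG matches lie within 27 bases of the start, and the first of them sits in the run TGACGTG, so that it overlaps a match to TGACG, the core of the cyclic AMP response element. This overlapping run was searched for after it was noticed. It occurs in 1.65% of all windows and in 3 of 49 member windows, or 6.12%, which are of Slc16a3, Hk2 and Pfkfb3. The full cyclic AMP response element TGACGTCA was found in 1 member window, of Ldha, and in 1.55% of all windows. TGACG was found in 16.3% of member windows and in 17.8% of all, and CACGTG in 10.2% against 6.02%. Tpi1, Eno2, Vldlr and Gpi1 had no core match in these windows.

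Over the whole set, most members were brightest with iloprost and dimmest with vehicle or indomethacin. Relative to the median gene, 22 of the 30 measured members were brightest in the iloprost dish, 4 in the IL-1β dish, 3 in the indomethacin dish and 1 in the vehicle dish. Among all 6222 such genes, 34.6% were brightest with iloprost, 18.5% with IL-1β, 19.3% with indomethacin and 27.5% with vehicle. The dimmest array was the indomethacin dish for 15 members and the vehicle dish for 13, against 23.0% and 26.6% of all genes. It was the IL-1β dish for 0 members, against 21.7% of all genes, and the iloprost dish for 2, against 28.7%.

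**Figure D1:**
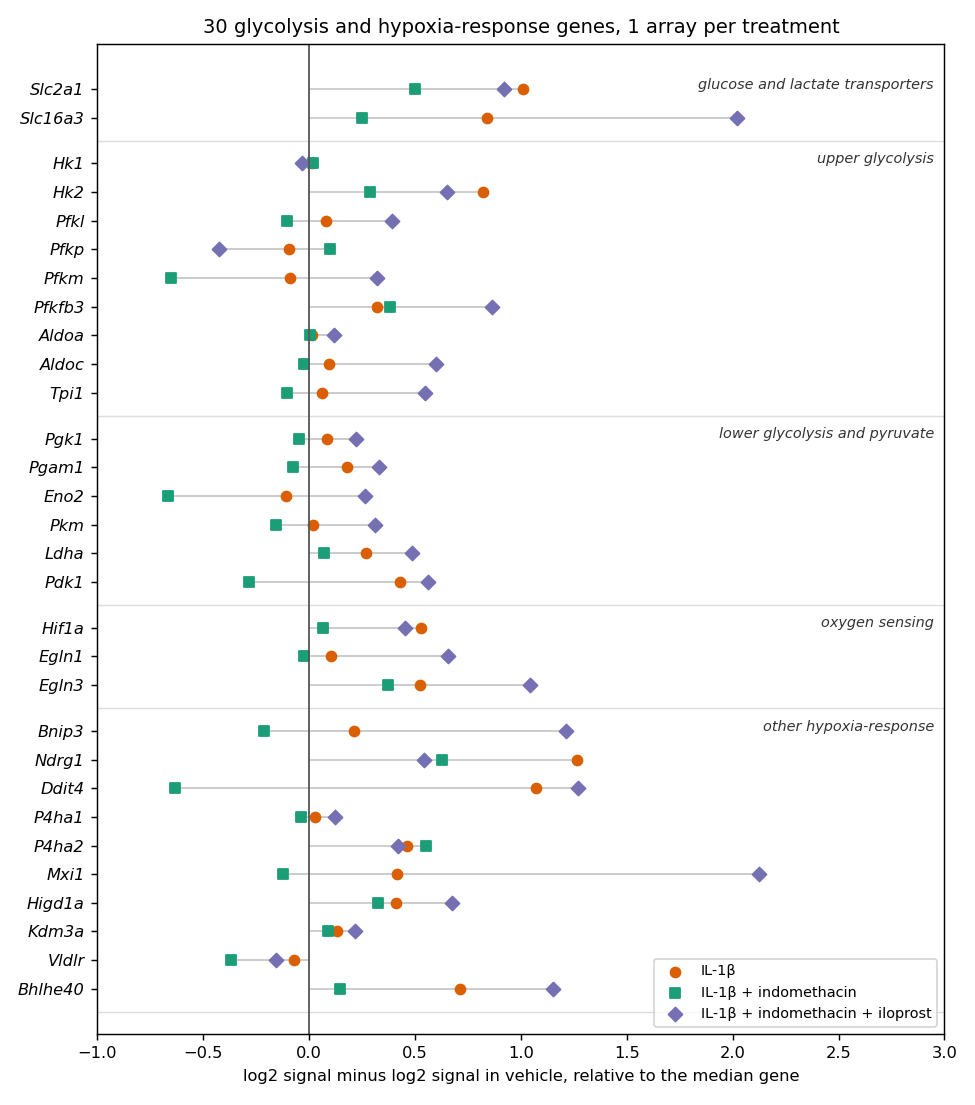
Log2 signal of each of the 30 measured members minus its log2 signal in the vehicle dish, relative to the median gene, with 1 point per array and genes grouped by role. The purple diamonds of the iloprost dish lie farthest to the right for most genes, up to 2.13 for Mxi1, and the green squares of the indomethacin dish lie on both sides of 0.

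With IL-1β against vehicle, the members had a median log2 ratio of 0.19, where all 6964 genes measured had -0.02. Above the median gene were 26 of 30 members, against 47.3% of all genes. At 2-fold, 3 members were higher and 0 lower, or 10%, where 1.72% of all genes were higher and 0.56% lower. They were Ndrg1, Ddit4 and Slc2a1. At 1.5-fold 6 members were higher, adding Slc16a3, Hk2 and Bhlhe40, and 0 lower, against 4.65% and 3.86% of all genes. As deposited this count was 12, against 10.7% of all genes. On that scale all 30 members were brighter with IL-1β, as were 78.2% of all genes, and 5 were higher at 2-fold, against 2.8% of all genes.

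Adding indomethacin to IL-1β gave the members a median log2 ratio of -0.19, against 0.00 for all 6932 genes. Below the median gene were 26 of 30 members, where 50.4% of all genes were above it. At 2-fold 1 member, Ddit4, was lower and 0 were higher, or 3.33%, where 0.664% of all genes were lower and 0.245% higher. At 1.5-fold 4 members were lower, Ddit4, Pdk1, Ndrg1 and Slc16a3, against 2.35% of all genes, and 0 were higher, against 1.64%. As deposited 11 members were lower at 1.5-fold, against 4.88% of all genes. This comparison shares the IL-1β array with the comparison before it, so the noise of that array enters both with opposite sign.

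Adding iloprost to IL-1β and indomethacin gave a member median of 0.44, against 0.04 for all 6986 genes. Above the median gene were 26 of 30 members, against 54.8% of all genes. At 2-fold 5 members were higher, Mxi1, Ddit4, Slc16a3, Bnip3 and Bhlhe40, and 0 lower, or 16.7%, where 1.98% of all genes were higher and 3.19% lower. At 1.5-fold 12 were higher and 0 lower, or 40.0%, against 7.83% and 7.19% of all genes. Among members with a signal of at least 113.2 on the brighter array, 7 of 25 were higher. Of these 7, Slc16a3, Egln1 and Mxi1 reached that signal only in the iloprost dish of this pair. The shares of all genes were not filtered in this way, so what dim signals add was not tested. The scale as deposited gave the same counts at 2-fold, since the brightness of these 2 arrays was close. This comparison shares the indomethacin array with the previous one.

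Against IL-1β alone, the dish with both drugs had a member median of 0.21, where all 7050 genes had 0.03. Above the median gene were 22 of 30 members, against 54.8% of all genes. Mxi1, Slc16a3 and Bnip3 were higher at 2-fold and 0 members were lower, against 0.95% and 2.37% of all genes. At 1.5-fold the same 3 members were higher, against 5.11% of all genes, and Ndrg1 was lower, against 5.91%. As deposited, the member median was 0.07 and that of all genes -0.11, and 2 members were higher at 2-fold, against 0.624% of all genes.

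**Figure D2:**
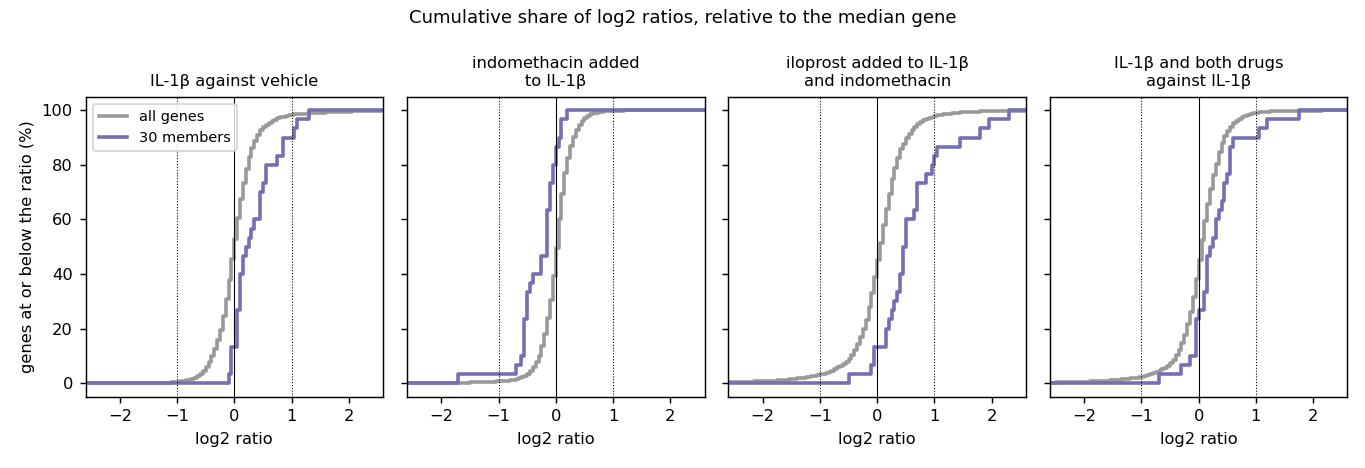
Cumulative percentage of genes at or below each log2 ratio (relative to the median gene) in 4 comparisons, for the 30 members (purple) and all genes measured (grey), with dotted lines at 2-fold. The purple step lies to the right of the grey one with IL-1β and with iloprost (member medians 0.19 and 0.44) and to the left with indomethacin (-0.19).

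Against vehicle, the indomethacin dish had 15 members above and 15 below the median gene, where 46.6% of all genes were above it. The member median was -0.01, and it was 0.07 on the scale as deposited, against 0.06 for all genes. No member was 2-fold from vehicle in that dish, where 1.32% of all genes were higher and 0.323% lower. The iloprost dish against vehicle had 27 of 30 members above the median gene, against 53.6% of all genes. The member median was 0.52, against 0.02 for all genes. There 6 members were higher at 2-fold and 0 lower, or 20.0%, against 2.72% and 3.34% of all genes. They were Mxi1 at 2.13, Slc16a3 at 2.02, Ddit4 at 1.27, Bnip3 at 1.21, Bhlhe40 at 1.15 and Egln3 at 1.04.

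The transporters that bring in glucose and export lactate come first. Slc2a1 (probe set 1434773_a_at), which carries glucose across the plasma membrane, had a signal of 592 in the vehicle dish, 1395 in the IL-1β dish, 885 in the indomethacin dish and 1191 in the iloprost dish. Its IL-1β and iloprost dishes were both well above vehicle, and the indomethacin dish lay between. The log2 ratio was 1.01 with IL-1β, -0.51 on adding indomethacin and 0.42 on adding iloprost, and the iloprost dish stood at -0.09 against IL-1β alone. The 3 probe sets of the gene ranged from 0.83 to 1.01 with IL-1β, from -0.51 to -0.43 on adding indomethacin and from 0.42 to 0.56 on adding iloprost. For iloprost against IL-1β alone they lay on both sides of the median gene, from -0.09 to 0.07. The IL-1β ratio lies at the 2-fold threshold, which it passed in 3 of 6 other settings, and the mean of the probe sets was 0.94.

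Slc16a3 (1449005_at), which exports the lactate that glycolysis makes, had signals of 50.8 in the vehicle dish, 106 in the IL-1β dish, 63.8 in the indomethacin dish and 219 in the iloprost dish. The iloprost dish was the brightest by far, at a log2 ratio of 1.77 against indomethacin, rank 31 of 6986 genes, and of 1.18 against IL-1β alone. The ratio was 0.84 with IL-1β and -0.59 with indomethacin. The vehicle and indomethacin signals are close to the floor of 37.6. With a floor at the 65th percentile both are under it, so the ratios become bounds. The iloprost ratio was then at least 1.36, the IL-1β ratio at least 0.03 and the indomethacin ratio -0.14 or lower.

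**Figure D3:**
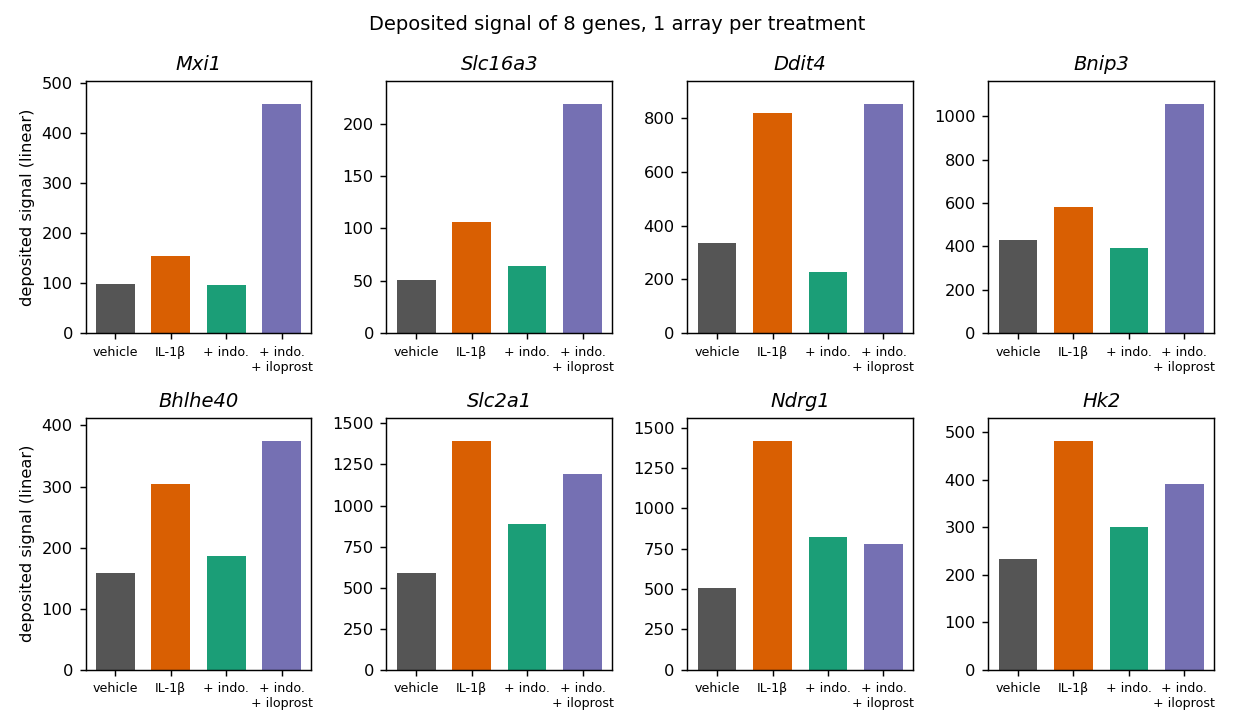
Deposited linear signal of 8 members in the 4 dishes, 1 array per bar, each panel with its own axis from 0; "+ indo." is IL-1β with indomethacin and "+ indo. + iloprost" is IL-1β with both drugs. Mxi1, Slc16a3, Bnip3 and Bhlhe40 are brightest with iloprost, Ddit4 is close in the IL-1β (818) and iloprost (853) dishes, and Slc2a1, Ndrg1 and Hk2 are brightest with IL-1β.

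Of the first steps of glycolysis, from hexokinase to triose phosphate isomerase, 9 genes were measured. Their median log2 ratio was 0.06 with IL-1β, -0.12 on adding indomethacin and 0.48 on adding iloprost, and 0 of 9 were past 2-fold in any of these. With so few genes that is near the shares of all genes, which were 1.98% higher and 3.19% lower on adding iloprost. Hk2, the inducible hexokinase that traps glucose in the cell, had signals of 234, 483, 302 and 391 in the order vehicle, IL-1β, indomethacin and iloprost, which is kept below. Its ratio was 0.82 with IL-1β, -0.53 on adding indomethacin and 0.36 on adding iloprost. Hk1, the constitutive hexokinase, was within 0.06 of the median gene in each of the 4 comparisons by its brighter probe set. The other was at 0.31 with indomethacin and -0.42 with iloprost.

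The 3 phosphofructokinase genes, which encode subunits of the enzyme that commits sugar to glycolysis, did not move together. Pfkp, the platelet-type subunit, had signals of 314, 344, 355 and 249 and was the measured member with the lowest iloprost ratio, -0.52. Its other probe set was at -0.09. Pfkl, the liver-type subunit, was at 0.49 with iloprost, and its other probe set at 0.52. Pfkm, the muscle-type subunit, had dim signals of 69.6, 76.5, 46.7 and 92.2, with ratios of -0.56 with indomethacin and 0.97 with iloprost. Pfkfb3, whose product makes the activator of phosphofructokinase, was at 0.32 with IL-1β, 0.06 on adding indomethacin and 0.48 on adding iloprost, and its other probe set was at 0.25 with iloprost.

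Tpi1, which interconverts the triose phosphates, had signals of 1267, 1546, 1246 and 1966. Its dish with iloprost was the brightest and the other 3 lay close together, at ratios of 0.06 with IL-1β, -0.16 on adding indomethacin and 0.65 on adding iloprost. The 3 probe sets ranged from 0.65 to 0.94 with iloprost. Aldoc, an aldolase that is weakly expressed in most cells outside the brain, had dim signals of 66.4, 83.0, 69.0 and 106.8 and an iloprost ratio of 0.62. The main aldolase, Aldoa, was bright on all arrays, with signals from 2734 to 3231 and an iloprost ratio of 0.12, the lowest of its 4 probe sets, which reached 0.31.

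Of the later steps and of the fate of pyruvate, 6 genes were measured. All 6 were below the median gene with indomethacin, at a median of -0.23, and all 6 above it with iloprost, at a median of 0.44 and between 0.27 and 0.93. Of all genes, 50.4% were above it with indomethacin and 54.8% with iloprost. These 2 comparisons share the indomethacin array. None was past 2-fold, which for 6 genes is again near the shares of all genes. Pgk1, phosphoglycerate kinase, was at 0.27 with iloprost, where its 3 probe sets ranged from 0.18 to 0.51. Pgam1, phosphoglycerate mutase, was at 0.40, and Pkm, pyruvate kinase, at 0.47.

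Ldha, which turns pyruvate into lactate, had signals of 1813 in the vehicle dish, 2558 in the IL-1β dish, 2012 in the indomethacin dish and 2698 in the iloprost dish. The IL-1β and iloprost dishes were the 2 brightest, at ratios of 0.27 for IL-1β against vehicle and 0.41 for iloprost against indomethacin. Pdk1, a kinase that keeps pyruvate out of the mitochondria by inhibiting pyruvate dehydrogenase, had dim signals of 45.7, 71.9, 39.6 and 71.6. Its ratio was 0.43 with IL-1β, -0.71 on adding indomethacin and 0.85 on adding iloprost. Eno2, the neuronal enolase, had signals of 58.6, 63.5, 39.0 and 74.8, with ratios of -0.56 with indomethacin and 0.93 with iloprost. For Pdk1 and Eno2 the indomethacin signal lies just above the floor of 37.6. Pfkm, Aldoc, Eno2, Pdk1 and Egln3 were under a signal of 113.2 on all 4 arrays, the range in which the noise SD is largest.

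By the probe sets used, the 3 genes of oxygen sensing were above the median gene with IL-1β and with iloprost, as were 47.3% and 54.8% of all genes. Hif1a, the oxygen-regulated subunit of HIF-1, had signals of 1440 in the vehicle dish, 2426 in the IL-1β dish, 1590 in the indomethacin dish and 2094 in the iloprost dish. Its ratio was 0.53 with IL-1β, -0.46 on adding indomethacin and 0.39 on adding iloprost. The 3 probe sets above the floor ranged from 0.53 to 0.91 with IL-1β and from -0.85 to -0.46 with indomethacin, so the brightest one, used here, gave the smallest difference in both. For iloprost against IL-1β alone they ranged from -0.21 to 0.19, so the probe sets differ on which of these dishes was the brighter. HIF-1 is controlled mainly at the protein level, which these arrays do not measure.

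Egln1 and Egln3 encode the prolyl hydroxylases PHD2 and PHD3, which mark the HIF-1 α subunit for destruction and are themselves HIF targets. Egln1 had signals of 82.1, 103.2, 85.3 and 137.5, with ratios of 0.10 with IL-1β and 0.68 with iloprost. Its second probe set was at -0.04 with IL-1β, -0.64 on adding indomethacin and 0.75 on adding iloprost, and its signals with IL-1β (82.0) and iloprost (80.5) were close. Egln3 had signals of 40.0, 67.3, 54.7 and 87.6, with ratios of 0.53 and 0.67. The iloprost dish was the brightest for both genes by the probe sets used.

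The other hypoxia-response genes gave the widest range. Mxi1 (1450376_at), a repressor that competes with Myc for its partner Max, had signals of 98.7 in the vehicle dish, 154 in the IL-1β dish, 95.6 in the indomethacin dish and 458 in the iloprost dish. Only its iloprost dish was far from the others, and the log2 ratio of 2.25 against indomethacin was rank 13 of 6986 genes. Against IL-1β alone it was 1.71, rank 11 of 7050. Its second probe set was at 2.35 and 2.07 in these comparisons. With IL-1β the 2 probe sets differed, at 0.42 and -0.17.

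Ddit4 (1428306_at), a stress-induced inhibitor of the growth kinase mTORC1, had signals of 333 in the vehicle dish, 818 in the IL-1β dish, 227 in the indomethacin dish and 853 in the iloprost dish. Its dishes thus form a high pair, IL-1β and iloprost, and a low pair, vehicle and indomethacin. The ratio was 1.07 with IL-1β, -1.70 with indomethacin, rank 15 from the lowest of 6932 genes, and 1.90 with iloprost, rank 23 of 6986. Against IL-1β alone the iloprost dish was at 0.20, and the indomethacin dish was at -0.63 against vehicle.

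Bnip3 (1422470_at), which directs damaged mitochondria to autophagy, had signals of 430 in the vehicle dish, 581 in the IL-1β dish, 391 in the indomethacin dish and 1057 in the iloprost dish. The iloprost dish was the brightest, at 1.43 against indomethacin, rank 56 of 6986, and at 1.00 against IL-1β alone. The ratio with IL-1β was 0.21 and with indomethacin -0.42. The ratio against IL-1β alone lies at the 2-fold threshold, and passed it in 3 of 6 other settings.

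Bhlhe40 (1418025_at), a repressor of the circadian clock that is also a HIF target, had signals of 159, 304, 186 and 375. Its IL-1β and iloprost dishes were the 2 brightest, at 0.71 with IL-1β, -0.57 on adding indomethacin and 1.01 on adding iloprost. This last ratio also lies at the threshold and passed it in 4 of 6 other settings.

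Ndrg1 (1456174_x_at), a HIF target linked to differentiation and stress, differed from these. Its signals were 505 in the vehicle dish, 1420 in the IL-1β dish, 824 in the indomethacin dish and 782 in the iloprost dish. The IL-1β dish was the brightest, at a ratio of 1.27, with -0.64 for indomethacin against IL-1β and -0.08 for iloprost against indomethacin. The 5 probe sets ranged from 1.00 to 1.27 with IL-1β, from -0.64 to -0.44 with indomethacin and from -0.08 to 0.24 on adding iloprost, where the one used gave the lowest value. With iloprost against IL-1β alone all 5 were below the median gene, but from -0.72 to -0.20, and their mean was -0.42.

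P4ha2, a subunit of the prolyl 4-hydroxylase that stabilises collagen, had signals of 1072, 1726, 1659 and 1522, with ratios of 0.46 with IL-1β, 0.09 on adding indomethacin and -0.13 on adding iloprost. The related subunit gene P4ha1 was between -0.07 and 0.16 in the 4 comparisons. Higd1a, which supports respiratory chain assembly under stress, was at 0.41 with IL-1β and 0.35 with iloprost, and Kdm3a, a histone demethylase, at 0.13 in both. Vldlr, a lipoprotein receptor, had probe sets that disagreed with iloprost, at 0.21 for the brightest and -0.50 for the other.

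**Figure D4:**
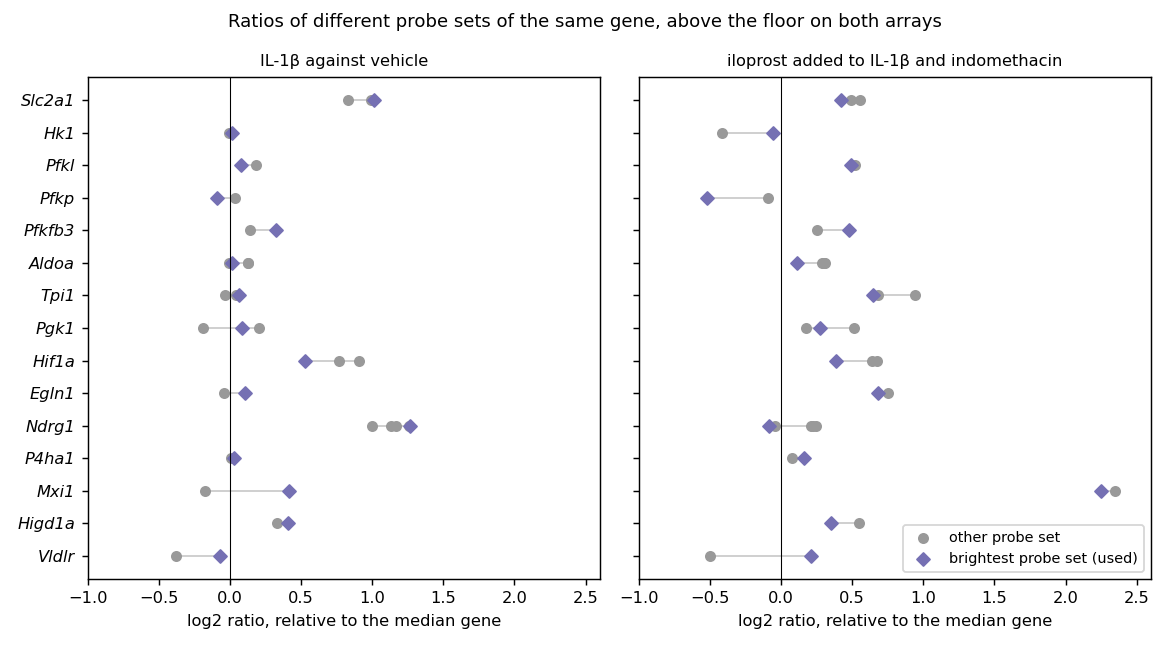
Log2 ratios (relative to the median gene) of the separate probe sets of the 15 members with more than 1 probe set above the floor on both arrays, for IL-1β against vehicle and for iloprost added to IL-1β and indomethacin. The points of Ndrg1 lie together with IL-1β (1.00 to 1.27) and those of Mxi1 with iloprost (2.25 to 2.35), while those of Vldlr fall on both sides of 0 with iloprost.

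Between probe sets of 1 member the spread had a median of 0.14 with IL-1β and 0.23 with iloprost, over 15 genes each. No member had probe sets past 1.5-fold in both directions in any of the 4 comparisons. Probe sets on both sides of the median gene were seen for 7 of the 15 genes with IL-1β, 3 on adding indomethacin and 2 on adding iloprost.

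Other genes of these pathways were taken from lists, which were also chosen with earlier results of these data known. Of other genes of glycolysis, glycogen and pentose phosphate metabolism, 32 had a probe set and 20 were measured with iloprost, with a median log2 ratio of 0.36, 2 higher at 2-fold and 0 lower, against 1.98% and 3.19% of all genes. With IL-1β 19 were measured, at a median of 0.17, with 1 higher and 0 lower, against 1.72% and 0.56% of all genes. With indomethacin the median was -0.16 and 0 were past 2-fold, where 0.664% of all genes were lower and 0.245% higher. Slc16a1, the lactate and pyruvate transporter MCT1, had signals of 265, 922, 446 and 1078, with ratios of 1.57 with IL-1β, -0.90 on adding indomethacin and 1.27 on adding iloprost. Its IL-1β and iloprost dishes were thus the brightest, as for Ldha. Pgm1, a phosphoglucomutase that links glycogen to glycolysis, had signals of 151, 217, 149 and 314 and an iloprost ratio of 1.07.

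Of other hypoxia-response genes, 45 had a probe set and 36 were measured with iloprost, with a median of 0.18, 2 higher at 2-fold and 1 lower, where the shares of all genes were 1.98% and 3.19%, so that the lower count is near that of all genes. With IL-1β 35 were measured, with a median of 0.14, 2 higher and 0 lower, against 1.72% and 0.56%, and with indomethacin the median was -0.06, with 1 lower and 0 higher, against 0.664% and 0.245%. Vegfa, the angiogenic growth factor, had signals of 149, 612, 286 and 495, with a ratio of 1.81 with IL-1β. Hilpda, a lipid droplet protein, had signals of 30.2, 119, 64.3 and 400. Its vehicle signal is under the floor, so its IL-1β ratio is at least 1.43, and with iloprost it was at 2.63.

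Cxcr4, a chemokine receptor, was at -1.05 with indomethacin and 1.40 with iloprost. Angptl4, an inhibitor of lipoprotein lipase, was at 1.08 with iloprost against IL-1β alone. Adm, which encodes the vasodilator peptide adrenomedullin, went the other way, with signals of 275, 429, 524 and 255 and an iloprost ratio of -1.05. Genes of the hypoxia response thus differed in direction with iloprost.

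The citrate cycle and respiratory chain, which use oxygen, were taken as another list. Its 47 measured genes had medians of -0.02 with IL-1β, -0.02 with indomethacin, 0.02 with iloprost and 0.02 with iloprost against IL-1β alone. None was past 2-fold in these, where between 0.245% and 3.19% of all genes were in either direction, and ratios with iloprost against indomethacin lay between -0.51 and 0.36.

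The dishes held RNA of fibroblast and macrophage marker genes. All 15 fibroblast markers were above the floor on every array, with Col1a2 between 5510 and 5698, and so were 19 of 20 macrophage markers, with Lyz2 between 5342 and 6247. Cd163 was under the floor. All 10 endothelial and 8 lymphocyte markers with a probe set were under the floor on every array, as were 7 of 9 chondrocyte markers. The summed signal of the macrophage markers was 39260 in the vehicle dish, 44913 in the IL-1β dish, 38267 in the indomethacin dish and 35430 in the iloprost dish, and that of the fibroblast markers 38801, 42761, 38419 and 40974. With iloprost against indomethacin, 15 of 19 macrophage markers were below the median gene, at a median of -0.23, and 11 of 15 fibroblast markers above it, at 0.10. Of all genes, 54.8% were above it. Their part in the member ratios was not tested. In such mixed RNA fewer cells of a type and less RNA per cell cannot be told apart, and the arrays do not show which cells made the transcripts of the members.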

How the data were processed

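Per the labels, total RNA was put on Affymetrix arrays by the maker's standard protocol. The authors deposited an intensity on a linear scale for each probe set. How probes were summarised, background-corrected and scaled is not given in the sources used here, and the arrays' medians ran from 35.2 to 40.6. Of 22690 probe sets, 20380 name 1 gene in the platform's annotation, which can be old, and are not controls. Left out were 691 with several genes, 1606 unlisted and 64 control probe sets, and these groups overlap. Symbols were checked by gene number against RefSeq GRCm38.p6, which changed 0. Signals were floored at 37.6, log2 was taken, and ratios were shifted by the median of 6222 genes. The number of arrays limits the precision. The share of probe sets exceeding the floor ran from 48.8% to 51.2%.

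The members and lists were chosen with earlier results of these data known. All measured members are named. Signals of all 4 arrays are given for those past 1.5-fold in any of 4 comparisons, and other pathway genes are named past 2-fold. The calculation was tested on simulated data. Alternatives were the scale as deposited, quantile normalization, other floors, no floor with a pseudocount of 16, the mean of all probe sets and a 1.5-fold threshold. Python 3.11.15, numpy 2.4.6 and pandas 2.3.3 were used.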

Additional observations from a re-analysis of the deposited data

How the results depend on the processing

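With 1 array per treatment no paired analysis was possible because no group has replicates, and no array could be left out. Over all settings, member medians kept their sign, from 0.15 to 0.42 with IL-1β, -0.34 to -0.17 with indomethacin, 0.39 to 0.52 with iloprost, and 0.07 to 0.29 with iloprost against IL-1β alone. As deposited, the IL-1β median was 0.42 and 5 members were higher at 2-fold, against 0.21 and 2.8% for all genes. At 1.5-fold, 6 members were higher with IL-1β, 4 lower with indomethacin, 12 higher with iloprost, and 1 lower with iloprost against IL-1β. The shares of all genes were 4.65%, 2.35%, 7.83% and 5.91%. As deposited the member counts were 12, 11, 12 and 1, against 10.7%, 4.88%, 7.96% and 8.7% of all genes. Settings chosen after seeing the data were bright members only and a floor at the 65th percentile with 1.5-fold. Bright members only kept the 2-fold counts higher with IL-1β (3 of 23) and with iloprost (5 of 25), against 1.72% and 1.98% of all genes. At 1.5-fold they gave 5 of 23, 2 of 23, 7 of 25 and 1 of 25, against 4.65%, 2.35%, 7.83% and 5.91%. In this setting the brighter array of each pair decided. With iloprost against indomethacin, Slc16a3 (63.8 with indomethacin, 219 with iloprost), Egln1 (85.3 and 137.5) and Mxi1 (95.6 and 458) thus passed only through the iloprost dish. The shares of all genes were not filtered by brightness, so this setting cannot show what dim signals add. The floor at the 65th percentile gave 5 of 25, 2 of 25, 7 of 28 and 1 of 28, against 3.75%, 1.38%, 5.89% and 5.13%. In both settings the last count is near the share of all genes. It holds only the lower members of iloprost against IL-1β alone. Higher at 1.5-fold in that comparison were 3 members in the main setting, against 5.11% of all genes. As deposited 3 were higher, against 2.84%. Bright members only gave 3 of 25 higher and the 65th percentile floor 4 of 28, against 5.11% and 3.94%. Dim members and signals near the floor limit what can be read.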
